A study of Mus musculus with 4 samples.

Results

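The 10 chondroitin sulfate synthesis genes Xylt1, Csgalnact1, Chsy1, Chsy3, Chpf, Chst3, Chst11, Papss2, Slc26a2 and Ugdh were read in primary mouse chondrocytes, cartilage cells taken into culture. They were chosen by name as enzymes and one transporter of the pathway, and were found on the arrays through the RefSeq transcript accession of each probe. This gave 11 probes, 2 for Chsy1 and 1 for each of the others, among 55681 probes for 37074 genes or unnamed transcripts. The cells came from 6-day-old C57BL/6J mice, either Rela fl/fl, in which the gene of the NF-κB subunit Rela is flanked by loxP sites, called control cells below, or Prrx1-Cre;Rela fl/fl littermates (cKO). Both genotypes therefore carried the floxed allele and only the second carried Cre, driven by a promoter active in limb mesenchyme. Cells of each genotype were cultured for 3 days with 10 ng ml−1 TNF, an inflammatory cytokine that activates NF-κB, or without it. There was 1 array for each of the 4 combinations, so no difference below has a replicate check and none has a p-value. Whether RNA of several animals was pooled is not given in the sources used here.

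Chondroitin sulfate is a long chain of alternating sugars that carries many sulfate groups. Chains of it hang on core proteins such as aggrecan and bind the water that lets cartilage resist compression. A cell starts a chain by adding xylose to a serine of the core protein, completes a short linker, adds the first N-acetylgalactosamine, extends the chain by alternating both sugars, and sulfates it as it grows. The sugars come from nucleotide sugars and the sulfate from PAPS, a carrier made inside the cell from imported sulfate.

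A signal of 1 below equals the array's own 75th percentile over its transcript spots, and a difference is in log2 units. Signals of different probes have no common scale, so each gene is compared only with itself. Rela itself, at 34.0 untreated and 40.2 with TNF on the arrays that the labels call cKO, was not lower there than in control cells, at 28.4 and 34.9. This rests on 1 probe, and whether it lies in the stretch that Cre removes was not examined. For Prrx1-Cre;Rela fl/fl mice, the paper reported recombination of the allele by PCR in chondrocytes and tissue-specific loss of Rela by RT-PCR. The cells of the arrays labelled cKO are therefore called cKO-labelled. The cytokine gene Ccl2 went from 0.920 to 29.8 with TNF in control cells and from 0.916 to 8.23 in cKO-labelled cells. The X-linked transcript Xist was at 0.719 and 0.755 in control cells and not well above background in cKO-labelled cells, where the Y-linked Ddx3y was at 3.67 and 4.24 against 1.31 and 1.30. The Y-linked Eif2s3y was at 6.24 and 6.54 in cKO-labelled cells against 1.78 and 1.84. Both Y-linked genes were well above background on all 4 arrays, so the control arrays held Xist and Y-linked signal together. Sex-linked transcripts thus moved with the genotype label. The sex make-up of the cells and their genotype cannot be told apart in the differences between genotypes. The cells carried cartilage transcripts, with all 12 chondrocyte markers well above background on the 4 arrays. All 11 probes of the synthesis genes were too, and none was saturated.

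Of the 10 genes, the 2 of sulfate supply had the widest ranges over the 4 arrays. Slc26a2, the sulfate transporter of the cell membrane whose loss causes diastrophic dysplasia, had a signal of 2.79 untreated and 2.32 with TNF in control cells. In cKO-labelled cells it was at 2.82 untreated and 2.07 treated. Both arrays with TNF were thus below both arrays without it, with log2 differences of -0.27 and -0.44. The cKO-labelled array differed from the control by 0.01 among untreated cells and by -0.16 among treated ones. The latter became -0.27 with the median deviation of neighbouring spots subtracted.

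Papss2, one of the pair of synthases that make PAPS and the one prominent in cartilage, had its highest signal, 106, in untreated control cells. Its signal was 86.5 with TNF in these cells. In cKO-labelled cells it was 83.4 untreated and 76.9 with TNF. The differences with TNF were -0.29 in control cells and -0.12 in cKO-labelled cells, and the cKO-labelled array differed from the control by -0.35 among untreated cells and by -0.17 among treated ones. Its range over the 4 arrays was 0.46, against 0.44 for Slc26a2. The single Papss2 spot lies in column 1 of its array, at the edge. With the median deviation of neighbouring spots subtracted, its difference with TNF became -0.18 in control cells and -0.01 in cKO-labelled cells, and its difference between the genotypes became -0.27 untreated and -0.10 treated. Other alternatives made differences larger. With TNF in cKO-labelled cells it was -0.22 with no scaling, -0.29 with quantile normalization and -0.23 in the value table that the authors deposited. Normexp background correction gave -0.41 with TNF in control cells and -0.44 between the untreated genotypes. The other synthase gene, Papss1, was at 4.02 in untreated and 3.71 in treated control cells and at 3.90 and 3.54 in cKO-labelled cells.

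Chst11, the sulfotransferase that places most 4-O-sulfate on cartilage chondroitin, had a signal of 7.22 untreated and 6.30 with TNF in control cells. In cKO-labelled cells it was at 6.34 and 5.59. It was lower with TNF in both genotypes, at -0.20 and -0.18, which became -0.19 and -0.29 with no scaling, and lower in cKO-labelled cells, at -0.19 without and -0.17 with TNF. The array of control cells with TNF and the untreated cKO-labelled array, neighbours in this order, differed by less than the spread between spots of 1 array given below. Chst3, which places 6-O-sulfate, ranged only from 0.632 to 0.685 over the 4 arrays.

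Among the enzymes that start and extend the chain, Csgalnact1, which adds the first N-acetylgalactosamine to the linker, followed the order of Chst11. Its signal was 23.2 untreated and 20.6 with TNF in control cells, and 21.1 and 18.1 in cKO-labelled cells. The differences with TNF were -0.17 and -0.22. Chsy1, a polymerase that adds both sugars of the repeat, had no difference with TNF past 2 technical SDs by either probe. It differed with TNF by 0.12 and -0.06 by the brighter probe and by 0.01 and -0.15 by the other. Its brighter probe was at 25.3 in untreated and 27.5 in treated control cells and at 22.8 and 21.8 in cKO-labelled cells, which is -0.33 between the genotypes with TNF. Its other probe gave -0.28 for the same difference, with signals of 19.8 and 16.3, and its spot lies in a bright patch on the untreated control array, which that difference does not use. The related gene Chsy3 was dim, at 0.200 and 0.198 in control cells and 0.218 and 0.180 in cKO-labelled cells. Chpf, the partner protein that polymerisation needs, was the steadiest of the 10 genes, with signals of 33.4, 32.7, 33.6 and 33.8 and a range of 0.05. Xylt1, which adds the first xylose, was at 0.389 and 0.344 in control cells and at 0.318 and 0.339 in cKO-labelled cells, with no difference past 2 technical SDs for so dim a probe.

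Ugdh, which makes UDP-glucuronate, the source of the glucuronate in the repeat, ran the other way. Its signal was 25.6 untreated and 28.2 with TNF in control cells, and 29.8 and 32.1 in cKO-labelled cells. It was higher in cKO-labelled cells by 0.22 among untreated and 0.19 among treated cells, and its differences with TNF were 0.14 and 0.11. The last value depended on the scaling, being 0.01 with no scaling and just below 0 in the value table that the authors deposited.

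**Figure D1:**
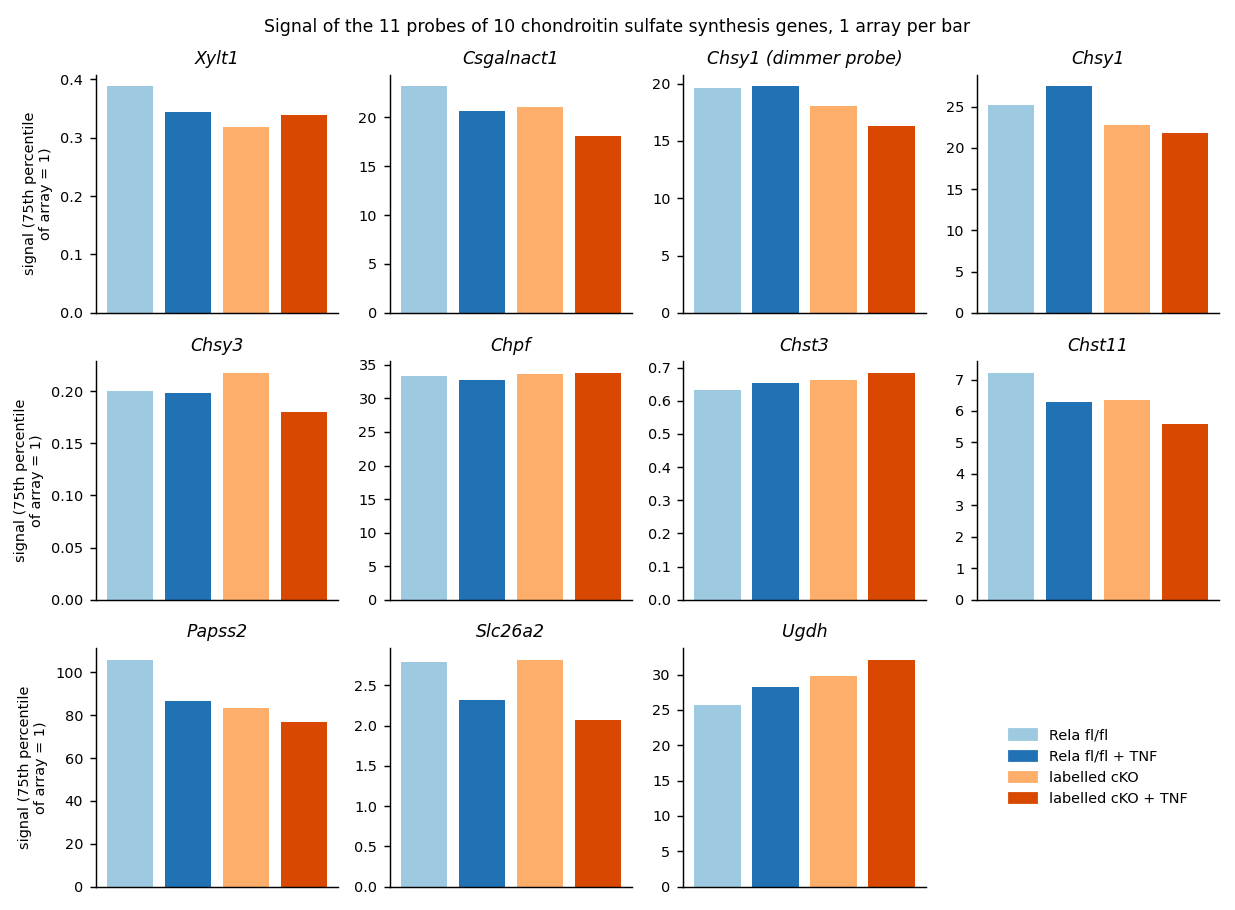
Signal of each of the 11 probes on each array (bars from 0, 1 array per bar, 75th percentile of the array = 1, each panel on its own linear scale). Slc26a2, Chst11 and Csgalnact1 are lower on both arrays with TNF than on the matching arrays without it, Papss2 is highest in untreated control cells, and Chpf stays between 32.7 and 33.8.

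A log2 difference of 1, which is 2-fold, was the limit for a call, and 0 of the 10 genes were past it in any comparison. Over all genes tested on the arrays, 6.66% were past it with TNF in control cells and 5.23% with TNF in cKO-labelled cells. Between the genotypes, 7.69% were past it among untreated cells and 4.38% among treated ones. The largest difference of a synthesis gene in any of the 4 comparisons was that of Slc26a2 with TNF in cKO-labelled cells.

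With 1 array per combination, differences this small were set against the technical spread. It was taken from 399 probes that each array carries in 10 spots. Of these, 173 to 215 on each array were well above background with no outlier spot and entered. For probes with a mean log2 signal of 3 or more, the SD of a difference between 2 single spots was 0.08 in each comparison, for those between 1 and 3 it was 0.08 to 0.09, for those between -1 and 1 it was 0.10 to 0.12, and for those under -1 it was 0.23 to 0.24. This spread holds the variation between spots of 1 array and none of that between cultures, animals or labelling reactions. A limit of 2 such SDs at the brightness of the probe was added after the data had been seen.

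With TNF in control cells, 4 of the 10 genes (Csgalnact1, Chst11, Papss2 and Slc26a2) were lower by more than 2 technical SDs, and 0 were higher. Over the 20481 genes well above background on all 4 arrays, 8.32% were lower and 10.5% higher by this limit. In cKO-labelled cells, 3 genes (Csgalnact1, Chst11 and Slc26a2) were lower with TNF and 0 higher, beside 9.07% and 19.8% of all genes. These 2 comparisons share no array. The 3 genes lower in both stand beside 1.61% of all genes lower in both, and the 0 genes higher in both beside 4.51%. By sign alone, 5 of the 10 genes were below 0 in both, beside 20% of all genes. Chst11 was no longer lower in both by the technical limit with normexp background correction or with the deviation of neighbouring spots subtracted. The median difference of the 10 genes was -0.10 in control cells and -0.09 in cKO-labelled cells, against 0.01 and 0.06 over all genes.

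Between the genotypes in untreated cells, 1 gene (Ugdh) was higher on the cKO-labelled array and 2 (Chst11 and Papss2) were lower, beside 13.4% higher and 11.9% lower of all genes. With TNF, Ugdh was again the 1 gene higher and 4 genes (Csgalnact1, Chsy1, Chst11 and Papss2) were lower, beside 18.4% and 10.2%. In both of these comparisons, which also share no array, 1 gene was higher and 2 were lower, beside 5.41% and 4.01% of all genes. Ugdh was no longer past the limit in both with no scaling, with quantile normalization, in the deposited value table or after subtraction of the neighbouring spots. Papss2 was no longer past it in both after that subtraction, and Chst11 with no scaling, in the deposited table or with normexp. The median difference of the 10 genes was -0.07 for untreated and -0.15 for treated cells, against 0.00 and 0.05 over all genes. Each comparison between genotypes shares an array with each TNF comparison, so a high or low spot on 1 array enters a TNF difference and a genotype difference.

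**Figure D2:**
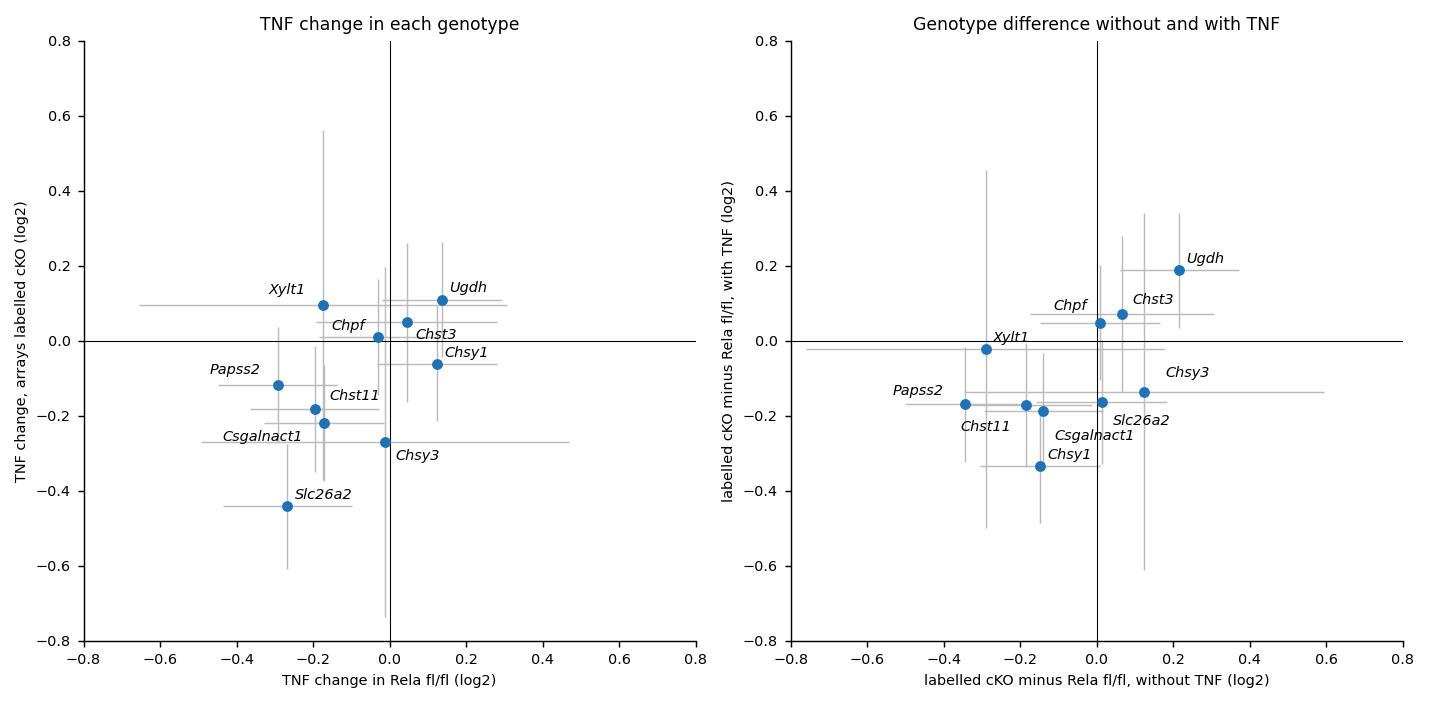
Log2 differences of the 10 genes with TNF in control cells (x axis) and in cKO-labelled cells (y axis), left, and between the genotypes in untreated (x axis) and TNF-treated cells (y axis), right. Grey bars are 2 technical SDs at the brightness of the probe, from repeated spots of 1 array. Slc26a2 is lowest at the left plot's lower left, at -0.27 and -0.44, and Ugdh is highest at the right plot's upper right, at 0.22 and 0.19.

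The TNF change in cKO-labelled cells minus that in control cells was 0.00 for Chst3, 0.01 for Chst11, 0.17 for Papss2, -0.19 for Chsy1 and -0.18 for Slc26a2, and 0.27 and -0.26 for the dim genes Xylt1 and Chsy3. With no scaling, all of these values shift by the same amount, so their order by size depends on the scaling. No test of these differences is possible with 1 array per combination.

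Other genes of the pathway were looked at as a list of 37, of which 35 had a probe and 34 were well above background on all 4 arrays. Past a log2 difference of 1 there was 1, Chst13, a 4-O-sulfotransferase. Its difference between the genotypes with TNF was -1.16 as a bound, from a signal of 0.0595 to one of 0.0217 that was not well above background, and it was well above background on 2 of the 4 arrays. By the technical limit, 5 of the 34 were higher and 1 lower with TNF in control cells, and 6 were higher and 4 lower in cKO-labelled cells. Between the genotypes, 4 were higher and 3 lower among untreated cells, and 5 were higher and 4 lower among treated ones. Their medians lay between 0.02 and 0.05 in the 4 comparisons. Of all genes, 10.5% were higher and 8.32% lower with TNF in control cells, and 19.8% and 9.07% in cKO-labelled cells. The shares between the genotypes were 13.4% and 11.9% among untreated cells, and 18.4% and 10.2% among treated ones. Counts for parts of this list stand beside the same shares.

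Dse, the epimerase that turns chondroitin into dermatan sulfate, was the 1 listed gene higher with TNF in both genotypes by more than 2 technical SDs. Its signal went from 0.966 to 1.24 in control cells and from 1.14 to 1.38 in cKO-labelled cells. Gfpt2, an enzyme of hexosamine supply, was the 1 lower in both by this limit, going from 3.67 to 3.22 and from 3.17 to 2.44. The 3 largest differences with TNF in control cells among the genes well above background on all 4 arrays were those of the xylose phosphatase Pxylp1 at 0.42, the sulfate transporter Slc26a1 at -0.39 and Dse at 0.36. The Pxylp1 spot lies in a patch, a group of neighbouring spots bright on a single array, on the untreated cKO-labelled array, which that comparison does not use. Between the genotypes, the sulfotransferases Chst7 and Chst12 were higher in cKO-labelled cells, untreated and treated, by 0.26 and 0.55 and by 0.35 and 0.19. B3galt6, which adds a galactose of the linker, was lower there, at -0.29 in both comparisons, and Gfpt2 was too, at -0.21 and -0.40.

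Of 5 genes of the sulfate donor list well above background on all 4 arrays, 0 passed the technical limit in any comparison. The 6 genes of the heparan sulfate branch, which share the linker with chondroitin sulfate, had medians of 0.14 and 0.09 with TNF in the 2 genotypes. By the technical limit, 2 were higher and 0 lower in control cells, and 1 was higher and 1 lower in cKO-labelled cells. Of the polymerase pair, Ext1 differed by 0.22 and 0.13 with TNF and Ext2 by -0.04 and -0.40, of which the first value of Ext1 and the second of Ext2 were past the limit.

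Core proteins, which carry the chains, were read by the probe that stands for each gene, and 6 were well above background on all 4 arrays. Their differences were of up to -1.31, for Vcan between the genotypes with TNF. By the technical limit, 1 was higher and 3 lower in cKO-labelled cells among untreated cells, beside 13.4% and 11.9% of all genes. Among treated cells 1 was higher and 4 lower, beside 18.4% and 10.2%. The 1 higher was Cspg4, at 0.16 and 0.19. Aggrecan mRNA (Acan) had a signal of 100.5 untreated and 81.9 with TNF in control cells, and 66.0 and 58.8 in cKO-labelled cells, so its 4 values fell in the order of those of Papss2. The Acan spot lies in a bright patch on the TNF-treated cKO-labelled array. Versican mRNA (Vcan) was at 1.35 in untreated and 1.91 in treated control cells and at 1.07 and 0.769 in cKO-labelled cells, with differences of 0.51 and -0.47. Its other probe well above background on all 4 arrays gave 0.16 and -0.27 with TNF, and -0.60 between the genotypes with TNF. Biglycan (Bgn) and decorin (Dcn), small proteoglycans, differed by 0.16 and 0.09 with TNF in control cells and by -0.24 and 0.35 in cKO-labelled cells, and both spots lie in a bright patch on the untreated control array.

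Marker lists are given by their summed signal, in which the brightest probes weigh most. That of the 12 chondrocyte markers ran from 1737 and 1645 in control cells to 1359 and 1392 in cKO-labelled cells, where 10 of them were lower by the technical limit among untreated cells and 8 among treated ones, and 0 were higher. With TNF, 0 of the 12 were higher and 6 lower in control cells, and 3 were higher and 2 lower in cKO-labelled cells. The 6 hypertrophic markers summed to 43.5 and 66.6 in control cells and 66.7 and 88.2 in cKO-labelled cells. By the technical limit, all 6 were higher in untreated cKO-labelled cells, and 5 were higher and 1 lower in treated ones. With TNF, 2 were higher and 4 lower in control cells, where Spp1 went from 24.1 to 42.3 and Mmp13 from 6.08 to 12.9, and 1 was higher and 3 lower in cKO-labelled cells. The 7 fibroblast markers summed to 643, 656, 590 and 570 in the same order, and 6 of the 7 were lower and 0 higher in cKO-labelled cells by the technical limit, both untreated and treated. With TNF, 2 of them were higher and 1 lower in control cells, and 3 were higher and 1 lower in cKO-labelled cells. Of the macrophage markers, 7 of 8 had a probe, the list summed to 39.4, 35.9, 44.2 and 35.3 with 1 of the 3 Itgam probes alone at 31.8 to 40.4, and its defining gene Ptprc was not well above background on any array. By the technical limit, 0 macrophage markers were higher and 1 lower with TNF in control cells, 0 and 2 in cKO-labelled cells, and 2 and 1 between the genotypes among untreated cells and 0 and 2 among treated ones. Some of these calls rest on spots in bright patches. Lyz2, in a patch on the untreated control array, was the 1 lower with TNF in control cells and between the untreated genotypes. Adgre1, in a patch on the untreated cKO-labelled array, was among the 2 lower with TNF in those cells and the 2 higher between the untreated genotypes. The other Adgre1 probe was not well above background on any array. Beside the counts of these lists, 10.5% of all genes were higher and 8.32% lower with TNF in control cells, and 19.8% and 9.07% in cKO-labelled cells. The shares between the genotypes were 13.4% and 11.9% among untreated cells, and 18.4% and 10.2% among treated ones. The part of these markers in the differences of the synthesis genes was not tested. In bulk RNA, fewer cells of a type and less RNA per cell cannot be told apart.

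**Figure D3:**
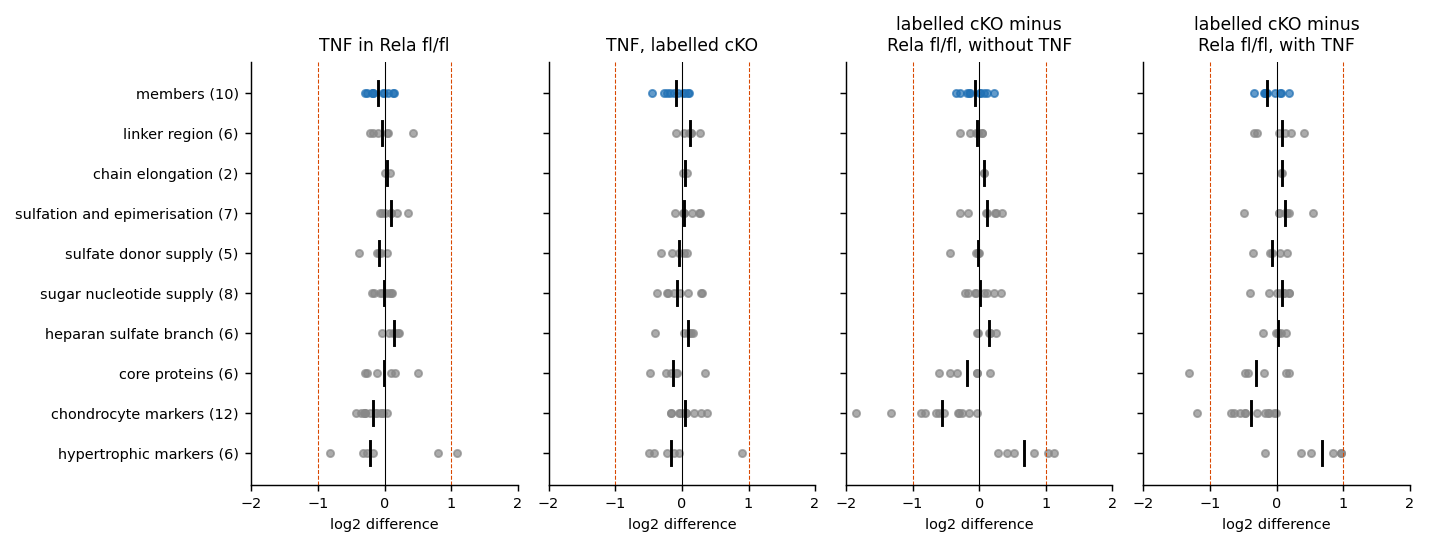
Log2 differences in the 4 comparisons for the 10 synthesis genes (blue, labelled members) and for the listed genes of other steps, the core proteins and 2 marker lists (grey), each point 1 gene well above background on all 4 arrays and each black bar the median of its list, with the number of genes in parentheses. Dashed lines mark the 2-fold limit. Acan stands in 2 lists, and the synthesis genes stay within the dashed lines in every panel.

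Promoter windows, from 250 bases before to 50 after a transcript start, were looked up in RefSeq (GRCm38.p6) for the synthesis genes, as had been planned. Those of Chst11, Papss2 and Ugdh were chosen for display because these genes were past the technical limit in both genotype comparisons. The table held 7 windows for 6 of the genes: Chpf, Ugdh, Chsy1, Chst3, Chst11 and 2 for Papss2. Not in it were Xylt1, Csgalnact1, Chsy3 and Slc26a2. The windows of Chst11 and Ugdh and the upstream one of Papss2 are shown 5′ to 3′ on the gene's strand, with matches to the degenerate NF-κB (kappaB) consensus in capitals, and beneath them 30 bases around such a match of the NF-κB target Nfkbia for comparison.
Chst11, chr10:82985247-82985546 (+): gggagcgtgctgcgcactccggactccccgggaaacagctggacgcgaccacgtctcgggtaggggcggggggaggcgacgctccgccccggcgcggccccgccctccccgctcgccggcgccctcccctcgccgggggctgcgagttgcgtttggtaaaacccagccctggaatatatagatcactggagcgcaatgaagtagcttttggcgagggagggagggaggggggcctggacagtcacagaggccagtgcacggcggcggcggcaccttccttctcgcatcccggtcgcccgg
Papss2, chr19:32595465-32595764 (+): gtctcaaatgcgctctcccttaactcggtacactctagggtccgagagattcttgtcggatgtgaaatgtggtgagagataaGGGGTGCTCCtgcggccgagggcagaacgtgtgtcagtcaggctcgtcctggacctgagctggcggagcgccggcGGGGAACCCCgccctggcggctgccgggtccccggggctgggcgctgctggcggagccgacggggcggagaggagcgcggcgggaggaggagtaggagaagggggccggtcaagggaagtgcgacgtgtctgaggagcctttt
Ugdh, chr5:65435793-65436092 (-): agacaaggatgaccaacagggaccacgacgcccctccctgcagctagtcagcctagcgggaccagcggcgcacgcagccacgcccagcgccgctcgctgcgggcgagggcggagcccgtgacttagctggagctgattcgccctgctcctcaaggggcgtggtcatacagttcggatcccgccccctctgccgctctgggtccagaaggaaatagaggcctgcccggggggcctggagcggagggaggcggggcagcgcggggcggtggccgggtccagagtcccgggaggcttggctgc
Nfkbia, chr12:55492657-55492686 (-): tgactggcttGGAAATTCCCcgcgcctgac

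The upstream Papss2 window held matches that start 168 and 93 bases before the start, and the other 6 windows held none. The degenerate consensus, added after the data had been seen, is in 8.46% of all 32851 windows on either strand. The stricter kappaB letters, 3 G, any 2 bases, 3 T and 2 C, are in 1.63% of windows and the SOX letters AACAATG in 3.78%, and 0 of the 7 windows held either on either strand. The Nfkbia match starts 29 bases before the start, and Nfkbia, an NF-κB inhibitor gene, had a signal of 3.50 untreated and 9.98 with TNF in control cells and 3.35 and 6.12 in cKO-labelled cells. The windows differ in base composition, with 71.0% G and C in Chst11 and Ugdh, 66.3% in the upstream Papss2 window and 44.3% in the second one, which has 1 CpG against 27. A match is a stretch of letters and says nothing of binding in these cells.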

How the data were processed

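Total RNA from 4 cultures of primary chondrocytes was labelled with Cy3 and hybridised to 1-colour Agilent mouse arrays, all on 1 slide. Spot intensities were deposited by the authors as Agilent Feature Extraction 10.10.1.1 (per the submitters' processing notes) writes them, with background subtracted and flags for outliers and for signal well above background. A value table of theirs held the processed intensity multiplied by a constant for each array.

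From the deposited intensity, log2 values were taken, the array's 75th percentile over 59305 transcript spots was subtracted, outlier spots were left out, and spots of a probe were averaged. Genes were named by accession through the RefSeq table of GRCm38.p6, and the probe with the highest mean stood for a gene. The array files name another assembly (mm9), so no coordinates were taken for the probes. A gene was past the limit when 2 arrays differed by a log2 value of 1 or more and the brighter signal was well above background; a dim one was first raised to the array's lowest value that had this flag. Patches are spots with 3 or more of 54 neighbours whose signal on 1 array exceeded that on every other array 2-fold. The technical spread came from the repeated probes well above background, in bins of mean log2 signal divided at -1, 1 and 3. The 75th percentile was 589 to 633 intensity units and 50.9% to 58.1% of probes were well above background. The number of arrays limits the precision. The counting was tested on simulated data.

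The synthesis genes and the lists were chosen with earlier results of these data known. Named are the 10 genes, listed pathway genes past the limit or among the 3 largest with TNF in control (Rela fl/fl) cells, the markers, Rela, and genes most like the synthesis gene with the widest range; genes past the technical limit in both comparisons of a pair were named after their values were seen, as were Papss1, Ext1 and Ext2. Alternatives were scaling, background, filter, patches, probe summary and limit. Python 3.11.15, numpy 2.4.6, pandas 2.3.3, R 4.3.3 and limma 3.58.1 (quantile and normexp, offset 50) were used.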

Additional observations from a re-analysis of the deposited data

Results flagged for a closer look

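Versican mRNA (Vcan), a core protein that carries chondroitin sulfate, differed by 0.505 on the log2 scale between TNF-treated and untreated control (Rela fl/fl) cells, and by -0.474 between those labelled cKO. It is given here because the 2 genotypes went opposite ways, with 1 array for each value, and the difference was not tested. A second probe went the same ways at 0.16 and -0.27.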

How the results depend on the processing

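No paired analysis was possible because each group holds 1 array, so no replicate numbers pair the groups; a model of genotype plus TNF was not run. The count of synthesis genes past a log2 difference of 1 was 0 under all alternatives, and their median difference stayed below 0 in all 4 comparisons under each alternative run. Of 360 recomputed differences of single synthesis genes, 30 moved by more than the technical SD at the brightness of the probe. For TNF in cKO-labelled cells these were 8 in the deposited table, 7 with no scaling, 6 with quantile normalization and 3 with the neighbouring spots subtracted, such as Slc26a2 to -0.54 with no scaling and Papss2 to -0.01 with the neighbouring spots subtracted. Against the SD pooled over all brightness (0.14 in each comparison), 3 moved by more, with TNF in cKO-labelled cells under quantile normalization: Xylt1 to 0.24, Chsy3 to -0.08 and Papss2 to -0.29. By the technical limit, the number of synthesis genes lower with TNF in both genotypes (3) was 4, with Papss2 added, with no scaling, quantile normalization or the deposited table, and 2, without Chst11, with normexp or the neighbouring spots subtracted. The number higher in cKO-labelled cells in both comparisons (1) was 0 with no scaling, quantile normalization, the deposited table and the neighbouring spots subtracted. The number lower in both (2) was 1 with no scaling, the deposited table and normexp. After subtraction of the neighbouring spots it was 2, Csgalnact1 and Chst11 in place of Papss2. The cause was not tested. The median of all genes with TNF in cKO-labelled cells was 0.06, and -0.04 with no scaling and -0.05 in the deposited table.

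The counts of all genes past the limit are given for TNF in control (Rela fl/fl) cells, TNF in cKO-labelled cells, and the genotypes without and with TNF. They were 1559, 1303, 1867 and 1074. With normexp they were 1008, 556, 1052 and 500, and with both arrays required to be well above background 530, 582, 742 and 472. With no filter they were 3710, 3682, 4229 and 3663, and with patches left out 247, 527, 406 and 470. A limit of 1.5-fold gave 2531, 2726, 3287 and 2498, and one of 3-fold gave 712, 1156 and 601 in the last 3 comparisons. Fewer genes are tested by construction when both arrays must be well above background or patches are left out. The share of these genes that were higher was 36.1%, 14.5%, 45.8% and 26.4%. It was 36.3%, 36.8%, 54.7% and 57.8% with no filter, 44.9%, 26.9%, 59.4% and 49.8% with patches left out, and 39.9%, 23.9%, 55.1% and 45.7% with the mean over probes. For TNF in cKO-labelled cells it was lower, at 9.60% with no scaling, 9.47% in the deposited table and 9.13% at 3-fold, and between the genotypes with TNF it was 13.8% at 3-fold. Of the other pathway genes, 1 was past a 1.5-fold limit with TNF in cKO-labelled cells (0 at the main limit), and Chst13, the 1 past the limit between genotypes with TNF, was not (0) with normexp, both arrays well above background, the mean over probes or a 3-fold limit. Repeated spots show only the spread within an array, not that between cultures.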

Other observations

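The genes most like Papss2, the synthesis gene with the widest range, were sought by the distance of the 4 log2 values, each centred on its own mean, over the 4 arrays. Among 729 named genes well above background on all 4 arrays with a range of at least 1, the nearest were the imprinted genes Peg3 (distance 0.438) and Magel2 (0.447), with Hnrnph3 (0.439), Tm4sf19 (0.454) and G0s2 (0.455), an inhibitor of fat breakdown. All 5 were highest in untreated control (Rela fl/fl) cells and lowest on the TNF-treated cKO-labelled array, as Papss2 was. With no minimum range, a choice added after the data had been seen, the nearest of 13351 genes were Apmap (0.0267), Prkcd (0.0291), Pcgf6 (0.0348), Zmynd8 (0.0414) and Apoc1 (0.0474), whose ranges were 0.42 to 0.49 against 0.46 for Papss2. Each likeness rests on 4 values, 1 per array.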
